A study of Mus musculus with 9 samples.

Results

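The proteasome subunit genes of the mouse, which code for the protein complex that degrades ubiquitin-tagged proteins, were examined in cells sorted from the amygdala of mice with different approach and avoidance tendencies. The cells were labelled as pyramidal neurons, but markers of excitatory neurons were mostly not listed and those of oligodendrocytes had the highest sum of the marker lists checked. Members were chosen by name: every gene whose symbol starts with Psm, then a letter from a to g and a number. Of 54 such genes in the annotation, 38 were among the 9872 genes listed for balancing (BA) and avoiding (AV) mice and 44 among the 11820 genes listed for BA and approaching (AP) mice. Both tables held 37 of them and neither held 9, namely Psma8, Psmb9, Psme2b, Psmg3, the pseudogenes Psmb5-ps, Psmb6-ps, Psmb6-ps2 and Psmb7-ps2, and Psmc3ip, which matches by name but codes for a recombination factor. Psmb3, Psmb4, Psmb5, Psmb8, Psmb10, Psme1 and Psmg1 were listed only for BA and AP mice and Psmg4 only for BA and AV mice, so these genes have values for 1 comparison each.

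All mice carried the Thy1-YFP transgene (B6.Cg-Tg(Thy1-YFP)HJrs/J), in which the Thy1 promoter drives yellow fluorescent protein mainly in pyramidal neurons, and no other allele or drug is named for any group. A conflict task in a Y-maze, with a palatable reward in an aversive arm, sorted them by spontaneous behavior into BA, AV and AP phenotypes, with 3 mice each, and a month later the fluorescent live cells of the amygdala of each single mouse were sorted and sequenced as 1 stranded library. Their age is not given in the sources used here. The authors deposited a normalized signal per gene and mouse, in a table of 3 BA and 2 AV mice and a table of the same 3 BA mice and 3 AP mice; they removed 1 AV mouse (replicate 2), which is not analysed here. The tables were normalized separately, so each comparison was made within its own table.

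The proteasome has a barrel, the 20S core, made of outer alpha rings (Psma genes) that gate the entry and inner beta rings (Psmb genes) that hold the proteolytic sites. The 19S cap (Psmc and Psmd genes) binds ubiquitin, unfolds the substrate with a ring of ATPases (Psmc genes) and feeds it into the core. Other caps can take the place of the 19S cap (Psme genes), Psmf1 codes for an inhibitor of the core, and Psmg genes code for chaperones that build it. Interferon signaling induces Psmb8, Psmb9 and Psmb10, which replace the catalytic subunits Psmb5, Psmb6 and Psmb7 to form the immunoproteasome, and also the activator genes Psme1 and Psme2. In the brain, microglia are known to express the immunoproteasome more than neurons do.

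Psmb8 and Psme1 had the largest differences between AP and BA mice, though neither was called. In the pairs Psmc5 with Psmc2 and Psme3 with Psme4, genes of the same role differed in opposite directions between AV and BA mice. The promoters of these 6 members, picked by these differences, are shown first. Each runs from 180 bases before the RefSeq transcription start to 20 bases from it (build GRCm38.p6), at chr17:34198015-34198214 for Psmb8, chr14:55578314-55578513 for Psme1, chr11:106256005-106256204 for Psmc5, chr5:21785095-21785294 for Psmc2, chr11:101316033-101316232 for Psme3 and chr11:30771595-30771794 for Psme4, all on the plus strand. Capitals mark the core of a gamma-activated site in Psmb8, an interferon-stimulated response element core (read on the minus strand) in Psme1, a CCAAT box in Psmc2 and, on the minus strand, in Psme3, and an antioxidant response element core on the minus strand in Psme4. The Psmc5 stretch holds none of these motifs. Neither does that of Psmb10, which also had higher values in AP mice and is not shown.
Psmb8: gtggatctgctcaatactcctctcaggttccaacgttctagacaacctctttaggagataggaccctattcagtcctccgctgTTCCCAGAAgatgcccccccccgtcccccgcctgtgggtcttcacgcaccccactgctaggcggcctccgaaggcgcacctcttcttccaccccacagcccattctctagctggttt
Psme1: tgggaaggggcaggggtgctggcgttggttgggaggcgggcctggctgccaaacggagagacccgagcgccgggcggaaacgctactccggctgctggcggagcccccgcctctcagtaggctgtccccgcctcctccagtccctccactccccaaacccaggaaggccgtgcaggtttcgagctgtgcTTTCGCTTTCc
Psmc5: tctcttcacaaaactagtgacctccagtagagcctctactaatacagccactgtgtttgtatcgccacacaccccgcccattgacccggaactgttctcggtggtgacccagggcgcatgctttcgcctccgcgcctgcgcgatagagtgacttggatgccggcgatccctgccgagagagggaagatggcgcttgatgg
Psmc2: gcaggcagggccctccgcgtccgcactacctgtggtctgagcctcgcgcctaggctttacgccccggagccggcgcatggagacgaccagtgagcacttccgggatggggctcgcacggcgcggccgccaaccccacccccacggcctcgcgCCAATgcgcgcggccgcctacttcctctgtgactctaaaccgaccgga
Psme3: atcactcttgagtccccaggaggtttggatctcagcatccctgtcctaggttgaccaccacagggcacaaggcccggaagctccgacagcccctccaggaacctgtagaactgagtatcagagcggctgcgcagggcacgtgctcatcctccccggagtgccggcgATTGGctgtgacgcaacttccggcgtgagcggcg
Psme4: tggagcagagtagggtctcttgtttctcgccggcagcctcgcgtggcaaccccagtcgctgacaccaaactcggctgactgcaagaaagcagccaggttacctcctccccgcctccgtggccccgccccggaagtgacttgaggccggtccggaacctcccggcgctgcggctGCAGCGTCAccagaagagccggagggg

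These motifs were searched on both strands in windows of 250 bases before to 50 bases after the start of 42 members found in RefSeq and of 27025 genes in all. The 42 include Psmb9, Psmc3ip, Psme2b and Psmg3, which neither table listed. Psmb1, Psmb2, Psmb7, Psmc3, Psmd3, Psmd7 and Psmg2 had no window, so the shares are not those of the members compared below. The interferon-stimulated element core (GAAA, any 2 bases, GAAA) was found in 5 members, 11.9%, against 3.99% of all genes. These members were Psmb3, Psmd4, Psmd9, Psme1 and Psmg4. The gamma-activated core (TTCNNNGAA) was in Psmb8, Psmd2 and Psmg1, 7.14% against 9.55%. The antioxidant element core (TGACNNNGC), which is close to what Nfe2l1 and Nfe2l2, the activators of proteasome transcription, are known to bind, was in 6 members, 14.3% against 14.0%. The CCAAT box (CCAAT) was in 15 members, 35.7% against 41.1%. A match to letters is a description of the window and no evidence of binding.

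The levels of the BA mice give the base of both comparisons, and they are set side by side here per kilobase of exon, as the mean of the 3 BA mice in the BA and AP table. Exon length was that of all annotated exons of a gene merged, so it can exceed the length of the expressed transcript. By this measure core and cap genes lay close together. The 7 alpha ring genes ranged from 45.2 per kilobase for Psma7 to 163.7 for Psma6, the 7 constitutive beta ring genes from 46.9 for Psmb3 to 166.8 for Psmb2, and the 6 ATPase genes from 74.3 for Psmc5 to 109.7 for Psmc2. The 3 catalytic beta genes were near each other, with 53.5 for Psmb5 (chymotrypsin-like activity), 64.3 for Psmb6 (caspase-like activity) and 60.9 for Psmb7 (trypsin-like activity). Before division by exon lengths of 899, 1872 and 3421 bases, their mean signals were 48.1, 120.4 and 208.3. Among the 11 non-ATPase genes of the cap the highest was Psmd2, a scaffold that receives ubiquitin shuttles, with 127.5, and the lowest Psmd13, a lid subunit, with 43.4.

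**Figure D1:**
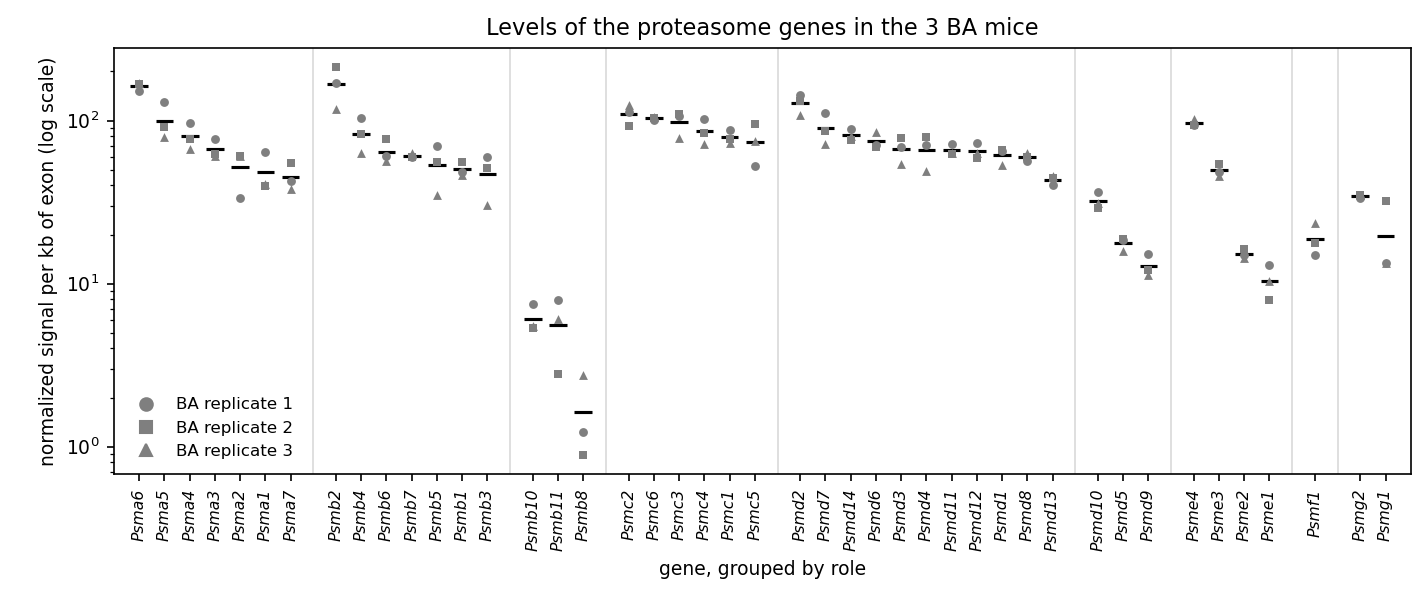
Level of the 44 proteasome genes in the BA mice of the BA and AP table: the y axis gives the normalized signal per kilobase of exon on a log scale, the points the 3 mice and the bars their mean, with genes grouped by role in the order alpha ring, beta ring, immunoproteasome and thymoproteasome, ATPases, non-ATPase subunits, 19S chaperones, activators, inhibitor and 20S chaperones. Psmb8 (1.63), Psmb10 (6.10) and Psmb11 (5.61) lie below every other member.

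Genes of the alternative proteasomes were far lower. Psmb8 stood at 1.63 per kilobase, Psmb10 at 6.10 and Psmb11, the beta subunit known from thymic epithelium, at 5.61. A gene without reads is listed at 2 in this table, so these low levels are upper estimates. Among activators, Psme4 (PA200, a nuclear cap) was at 96.4 and Psme3 (PA28 gamma, also nuclear) at 49.4, while Psme2 was at 15.2 and Psme1 at 10.4. These are the subunits of the cytoplasmic activator PA28 alpha-beta. Assembly chaperones of the cap ran from 12.9 for Psmd9 to 32.3 for Psmd10.

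The labelled pyramidal neurons were checked against 7 lists of cell type markers. The 8 oligodendrocyte markers, not the neuronal ones, had the highest sum of these lists, between 188646 and 233683 in BA mice of the BA and AV table. Of 7 markers of excitatory neurons Camk2a and Nrgn alone were listed; Slc17a7, Slc17a6, Neurod2, Neurod6 and Tbr1 were not listed in either table, and neither was Thy1. AV mice were lower than each BA mouse in all 8 oligodendrocyte markers (6 called), with sums of 53606 and 82507, and higher in Camk2a, Nrgn, the 3 listed microglial markers and 6 of 7 listed astrocyte markers. AP mice overlapped BA mice in the oligodendrocyte markers and were above every BA mouse in all 8 microglial markers. AP mice also differed among themselves: Camk2a was at 842.8 and 1401.3 in AP replicates 2 and 3, while AP replicate 1 lay within the range of the BA mice (64.9 to 98.3), and Nrgn was at 5.41, 112.5 and 396.7 against 14.8 to 20.4. The sum of the 8 astrocyte markers was 9952, 53054 and 30060 in the AP mice and 12533 to 17502 in the BA mice. No marker was at 0 in a listed row, but this tells nothing of detection. The lowest value of any gene was 2 in each mouse of the BA and AP table, and 1.43 to 1.99 in the mice of the other. Fewer cells of a type and less RNA per cell cannot be told apart in such libraries, and the part these shifts have in the results below was not tested.

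Between BA and AV mice, a minority of proteasome genes differed, and they differed in both directions. In AV mice Psmc5, Psme3 and Psmc1 were higher and Psmb11, Psmc2 and Psme4 lower, 6 of 38 members at a limma adjusted p under 0.05, 15.8%. Over all genes the share called was 29.7%, with 13.6% higher and 16.2% lower. The log2 fold change, here always AV over BA on the log2(value + 1) scale, was above 0 for 24 members and below 0 for 14, with a median of 0.25 against -0.03 over all genes. Both AV mice were above every BA mouse in 12 members, 27.7% being the share over all genes, and below every BA mouse in 5, against 31.3%. The median difference of the members from the BA mean was 0.35 in AV replicate 1 and 0.12 in AV replicate 3.

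**Figure D2:**
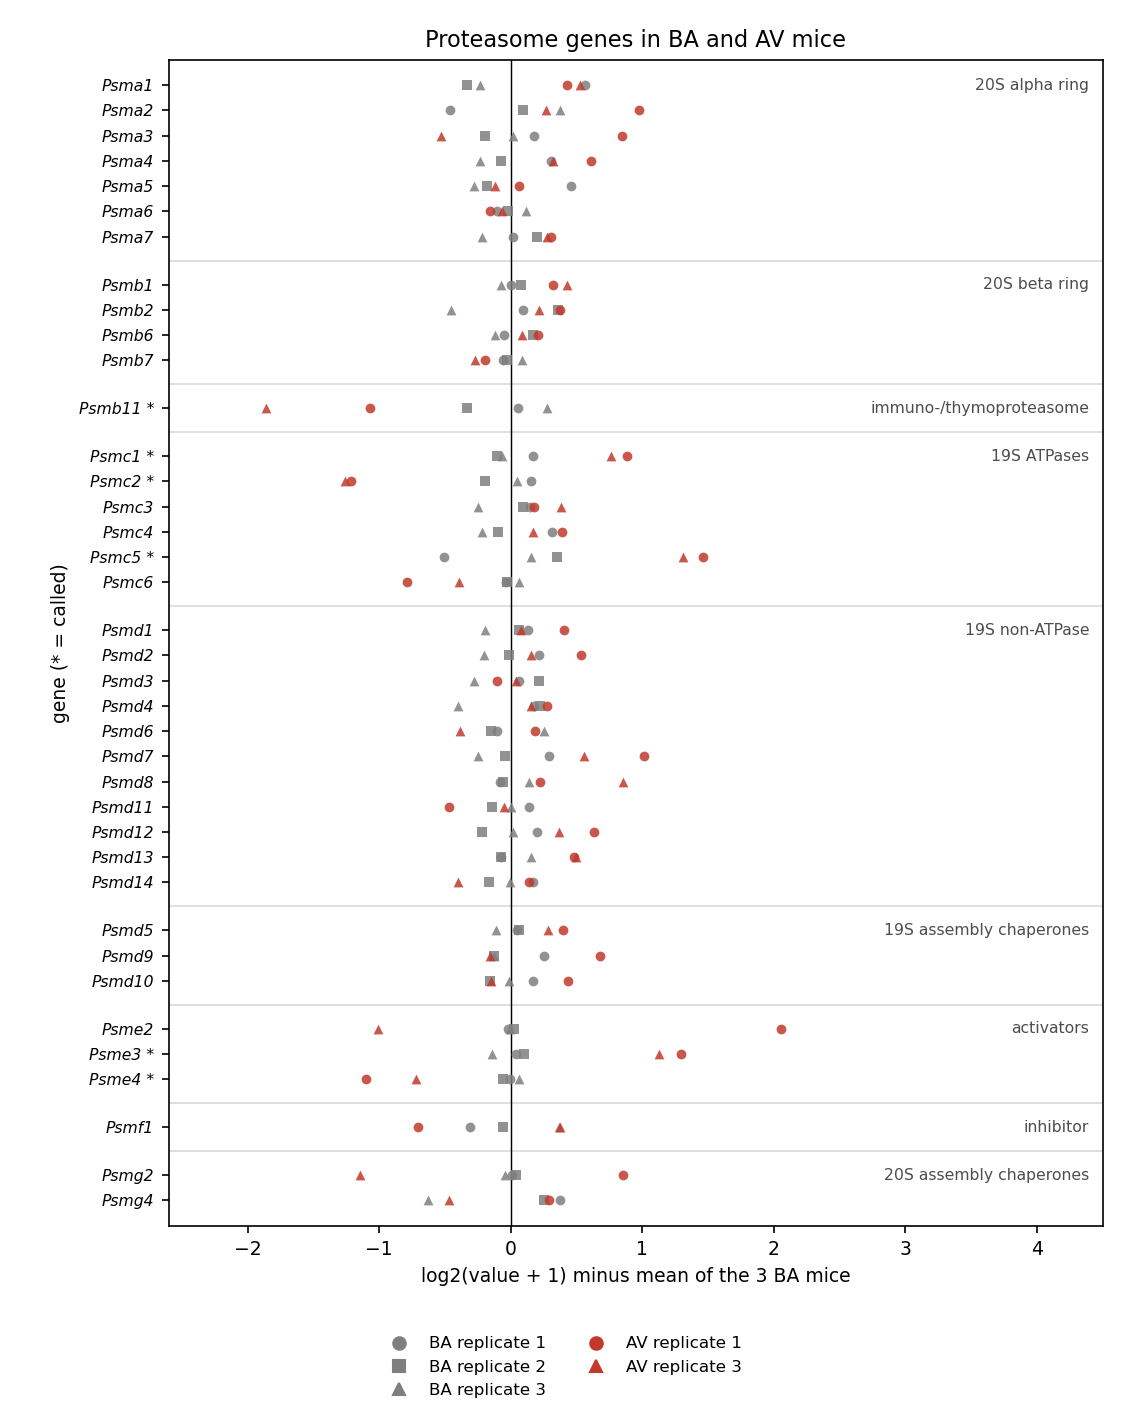
Each of the 38 proteasome genes in BA and AV mice: the x axis gives log2(value + 1) minus the mean of the 3 BA mice, each point is 1 mouse, and an asterisk marks a gene called at a limma adjusted p under 0.05. Psmc5, Psmc1 and Psme3 lie to the right of all BA mice and Psmc2, Psme4 and Psmb11 to the left. The 2 AV mice lie on opposite sides of the BA mice in Psme2, Psmg2 and Psma3 and, narrowly on one side, in Psmf1 and Psmd9.

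The ATPase ring held 3 of the 6 calls. Psmc5 (ENSMUSG00000020708.12) was at 56.8, 104.1 and 90.7 in the BA mice and at 225.4 and 202.8 in the AV mice. All AV values lay above all BA values, with a log2 fold change of 1.38 (SE 0.30, limma adjusted p = 0.0168). Psmc1 (chr12:100110154-100123405), an ATPase known for its part in opening the gate of the core, was at 141.2, 116.6 and 119.5 in the BA mice and at 232.6 and 213.8 in the AV mice. It was higher by 0.83 on the log2 scale (SE 0.22, limma adjusted p = 0.0305), and it has an unlisted near copy, AC110212.1, with 95.636% identity over 1306 bases. Psmc2 went the other way: the BA mice were at 469.6, 368.1 and 435.4 and the AV mice at 181.7 and 175.5, a log2 fold change of -1.24 (SE 0.22, limma adjusted p = 0.00868). Psmc6 was also lower in both AV mice, at 176.2 and 232.0 against 298.7, 299.4 and 318.8, but with a limma adjusted p of 0.0909 (log2 fold change -0.59). Psmc3 and Psmc4 were not called, with log2 fold changes of 0.28 each.

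**Figure D3:**
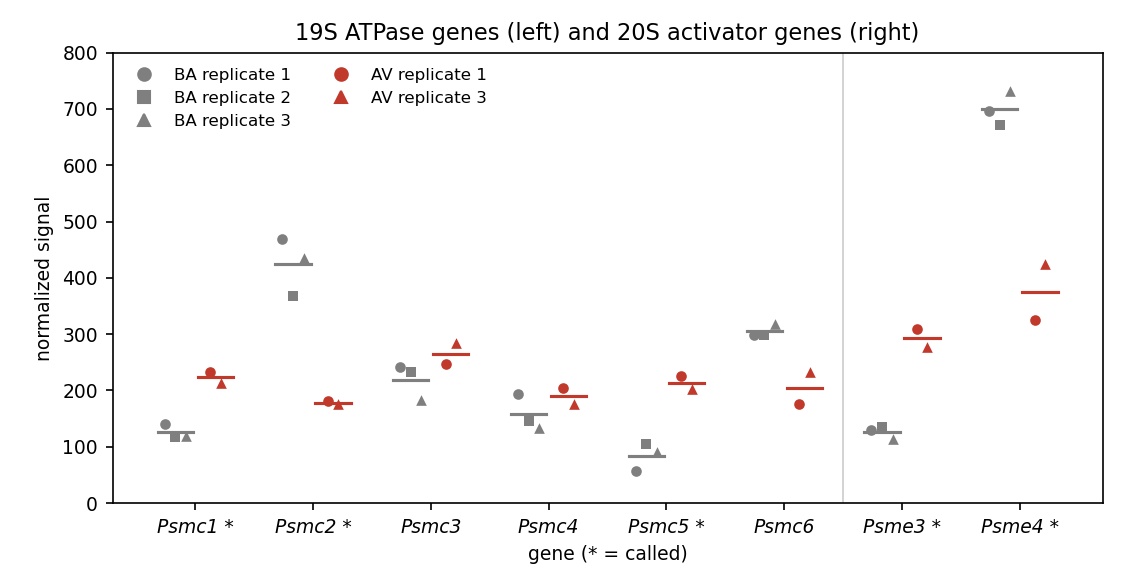
Normalized signal of the 6 ATPase genes of the 19S cap and of the activator genes Psme3 and Psme4 in BA (gray) and AV (red) mice: each point is 1 mouse, bars are group means and an asterisk marks a called gene. Psmc2 falls from a mean of 424.4 in BA mice to 178.6 in AV mice while Psmc5 goes from 83.9 to 214.1.

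The ATPases work as a ring with 1 copy of each subunit, so their levels can be set against each other within a mouse. Per kilobase of exon, the ratio of Psmc5 to Psmc2 was 0.437, 1.02 and 0.752 in the BA mice and 4.48 and 4.17 in the AV mice. In the other table it was 0.466, 1.03 and 0.608 in the BA mice and 0.678, 1.16 and 0.825 in the AP mice, where the groups overlap. Since the ratio joins genes that were called in opposite directions, it is a description with no test. The SD of the 6 ATPase differences from the BA mean was 1.01 in AV replicate 1 and 0.90 in AV replicate 3. Over all genes this SD was 1.14 and 1.01, while over the 7 alpha ring genes it was 0.41 and 0.36 and over the 11 non-ATPase genes 0.39 and 0.38.

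Activators also split. Psme3 was at 129.7, 134.7 and 114.0 in the BA mice and at 309.4 and 276.4 in the AV mice, a log2 fold change of 1.21 (SE 0.22, limma adjusted p = 0.00858). Psme4 was at 695.7, 671.3 and 731.7 in the BA mice and at 324.9 and 424.9 in the AV mice. The log2 fold change was -0.91 (SE 0.23, limma adjusted p = 0.0252). Their ratio per kilobase was 0.530, 0.571 and 0.443 in the BA mice and 2.71 and 1.85 in the AV mice. The AP mice had ratios of 0.347, 0.606 and 0.473, which overlap those of the BA mice in that table (0.516, 0.574 and 0.453).

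The calls were repeated with each mouse left out. Psmc5, Psmc2 and Psme3 stayed called when any of the 5 mice was left out, with limma adjusted p values up to 0.0475, 0.0399 and 0.0371. Psmc1 was no longer called without BA replicate 1, 2 or 3 or AV replicate 1 (limma adjusted p 0.0614, 0.103, 0.0930 and 0.0697), and neither was Psme4 (0.0762, 0.0773, 0.0810 and 0.0791). Psmb11 was lost without BA replicate 1 (0.0629) or BA replicate 3 (0.0594). The log2 fold changes kept their sign, between 0.77 and 0.91 for Psmc1, -1.10 and -0.72 for Psme4 and -1.86 and -1.07 for Psmb11. Over all genes the calls went from 2934 to between 1521 and 1781 without 1 BA mouse, and to 3173 without AV replicate 1. With 1 AV mouse left, that mouse is assumed to vary like the other group.

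In the 20S core 1 of 12 listed genes was called. Psmb3, Psmb4 and Psmb5 were not listed here, though their BA means in the other table were 107.9, 161.8 and 48.1. Why they were left out was not tested. None of the 7 alpha ring genes and none of the 4 listed constitutive beta genes was called, and their log2 fold changes ran from -0.11 (Psma6) to 0.62 (Psma2) and from -0.24 (Psmb7) to 0.38 (Psmb1). Psmb6 was at 93.3, 108.9 and 89.1 in the BA mice and at 111.6 and 102.7 in the AV mice, and Psmb7 at 165.7, 169.0 and 183.4 against 150.3 and 142.6. The catalytic gene Psmb6 overlapped between groups and Psmb7 did not, with log2 fold changes of 0.14 and -0.24 and limma adjusted p values of 0.648 and 0.422. The call was Psmb11 (chr14:54621433-54629556), a gene with low values: 16.2, 12.1 and 19 in the BA mice and 6.86 and 3.55 in the AV mice (log2 fold change -1.46, SE 0.32, limma adjusted p = 0.0164). In the other table the same BA mice had Psmb11 values of 38.2, 13.4 and 29.0, so values of the same mice differ between the tables. The SD of Psmb11 over the BA mice was 3.47 here and 12.6 there.

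In the rest of the 19S cap no gene passed the test. Psmd7, partner of the deubiquitinase Psmd14 in the lid, came nearest, at 202.6, 160.5 and 138.8 in the BA mice and 334.7 and 243.4 in the AV mice (log2 fold change 0.78, SE 0.27, limma adjusted p = 0.0673). Psmd14 itself overlapped, with a log2 fold change of -0.13. Psmd13, Psmd12 and Psmd8 lay above every BA mouse with log2 fold changes of 0.49, 0.50 and 0.54, and Psmd11 was at the low end with -0.26. Of the chaperones of the cap, Psmd5 was above every BA mouse by 0.34 on the log2 scale (limma adjusted p = 0.257). Psmd5 was listed at 112.6, 113.8 and 100.7 in the BA mice and at 143.8 and 132.9 in the AV mice.

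In several members the AV mice differed from each other more than from the BA mice, and these were picked out after their values were seen. Psme2 was between 22.2 and 23.0 in the BA mice but 96.7 in AV replicate 1 and 10.7 in AV replicate 3. Psme2 has a near copy, Psme2b, with 99.37% identity over 794 bases, and Psma3 has Gm13835, identical over 685 bases. Neither copy is listed, and how reads were split with them is uncertain. Psmg2, a chaperone of the alpha ring, was between 49.9 and 52.9 in the BA mice, 93.8 in AV replicate 1 and 22.7 in AV replicate 3. Psma3 was at 417.5 and 160.3 in the AV mice, against 203.1 to 262.7 in the BA mice. Psmf1 was at 61.0 and 129.5 in the AV mice and between 80.4 and 129.1 in the BA mice. A mean over these AV mice describes neither of them.

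Between BA and AP mice no proteasome gene was called. The share called over all genes was 0.00846%, a single gene that is no member. At an unadjusted limma p under 0.05 there were 3 members of 44, Psmb8, Psme1 and Psmb10, 6.82%, where the share over all genes was 7.77%. These 3 genes were not listed in the other table, which holds the same BA mice, and whether they passed the authors' filter on low counts through the AP mice alone was not tested. Their values are therefore a description. AP mice were above every BA mouse in 4 members (5.64% being the share over all genes), the fourth being Psma2, and below every BA mouse in Psmd11 and Psmg2 (6.45% of all genes). The log2 fold changes, here AP over BA, had a median of -0.02 over the members and -0.03 over all genes.

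**Figure D4:**
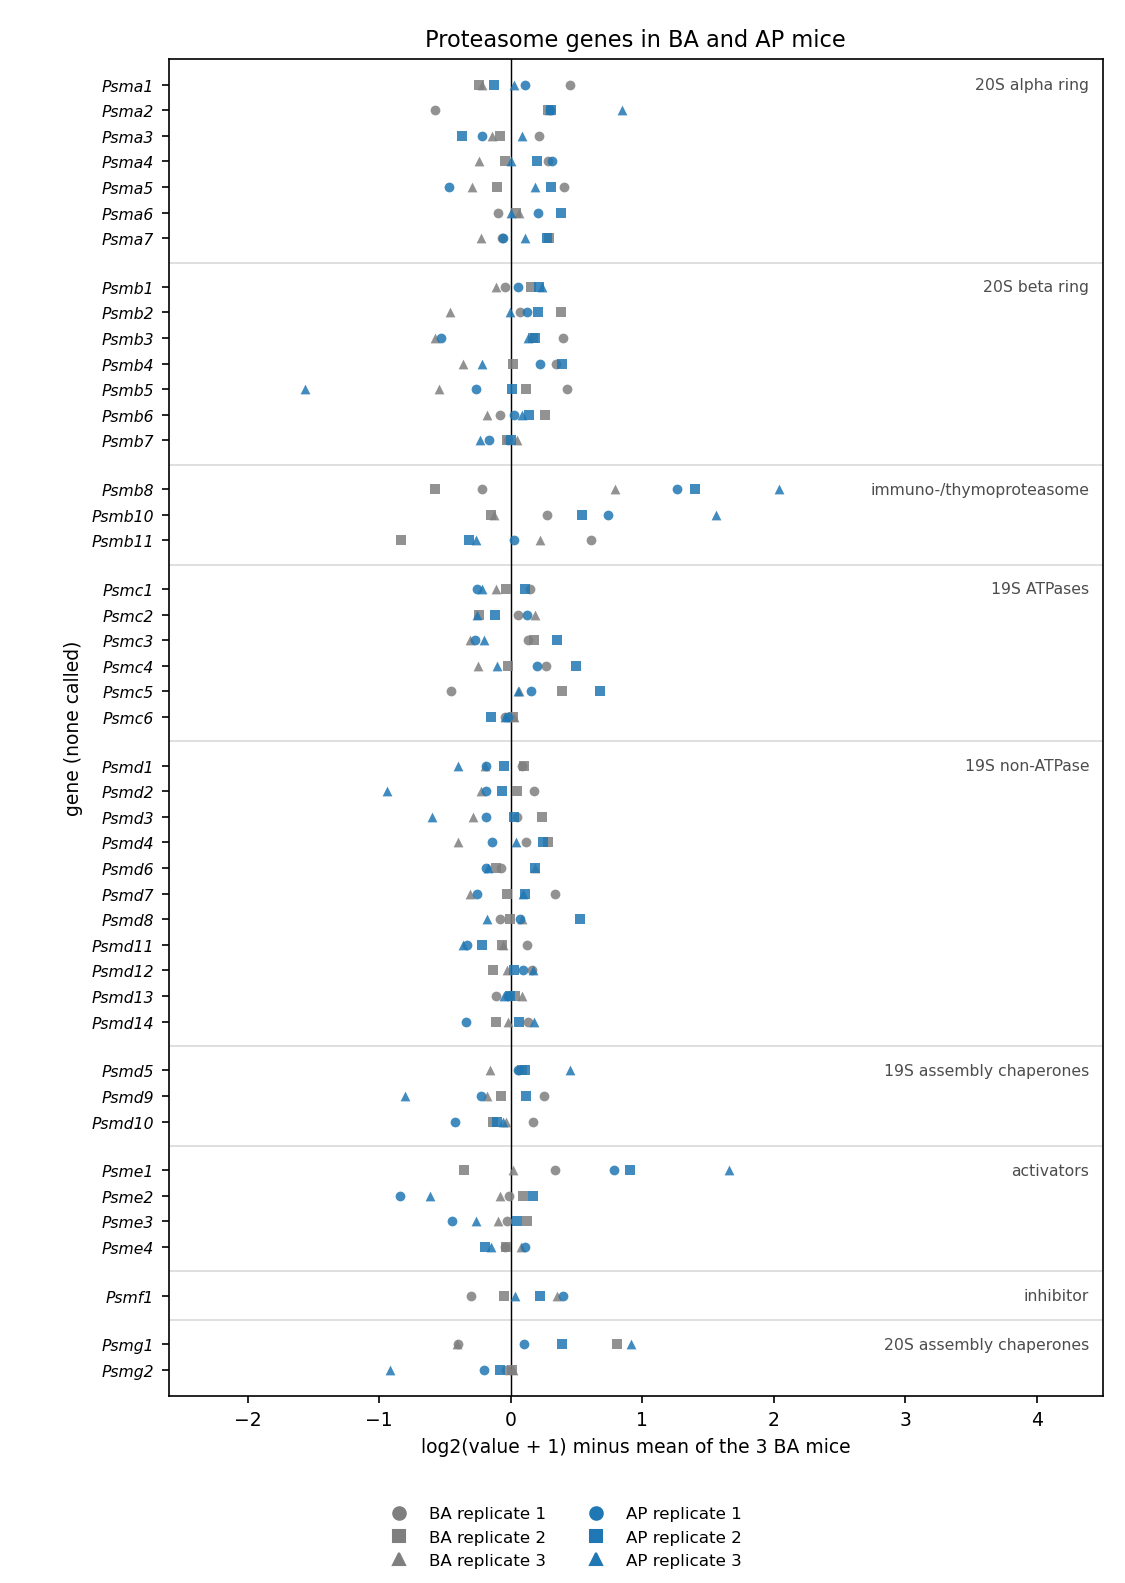
Each of the 44 proteasome genes in BA and AP mice: the x axis gives log2(value + 1) minus the mean of the 3 BA mice and each point is 1 mouse; no gene was called. Psmb8, Psmb10 and Psme1 are the genes in which all 3 AP mice lie well to the right of the BA mice, and most other genes overlap around 0.

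Psmb8, which replaces Psmb5 in the immunoproteasome, was at 4.13, 3.02 and 9.36 in the BA mice and at 13.4, 14.8 and 23.6 in the AP mice. The log2 fold change was 1.57 (SE 0.38, limma adjusted p = 0.349). Read back from the steps of the low values, these were 2, 1 and 6 reads in the BA mice and 10, 18 and 20 in the AP mice, so 2 of the BA mice were at or under 3 reads. Its exons overlap 498 bases of the antisense gene Gm20496; the kit is stranded, and whether reads were counted by strand is not given in the sources used here.

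Psme1, the alpha subunit of the PA28 cap, was at 28.6, 17.4 and 22.8 in the BA mice and at 39.5, 43.1 and 73.4 in the AP mice (log2 fold change 1.12, SE 0.31, limma adjusted p = 0.392). Psmb10 (chr8:105935735-105938444), which replaces Psmb7, was at 12.7, 9.17 and 9.36 in the BA mice and at 17.9, 15.5 and 32.3 in the AP mice (log2 fold change 0.95, SE 0.31, limma adjusted p = 0.478). Over the 3 mice of a group Psme1 had 157 reads in AP and 57 in BA mice, and Psmb10 had 61 and 23. Scaled to the reads of each group over all listed genes, the AP over BA ratios were 2.37 for Psme1 and 2.29 for Psmb10. In Psme1 and Psmb10 as in Psmb8 the highest mouse was AP replicate 3. Psmb9, the other inducible catalytic gene, was not listed, and Psmb8, Psmb10 and Psme1 have no values for AV mice.

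**Figure D5:**
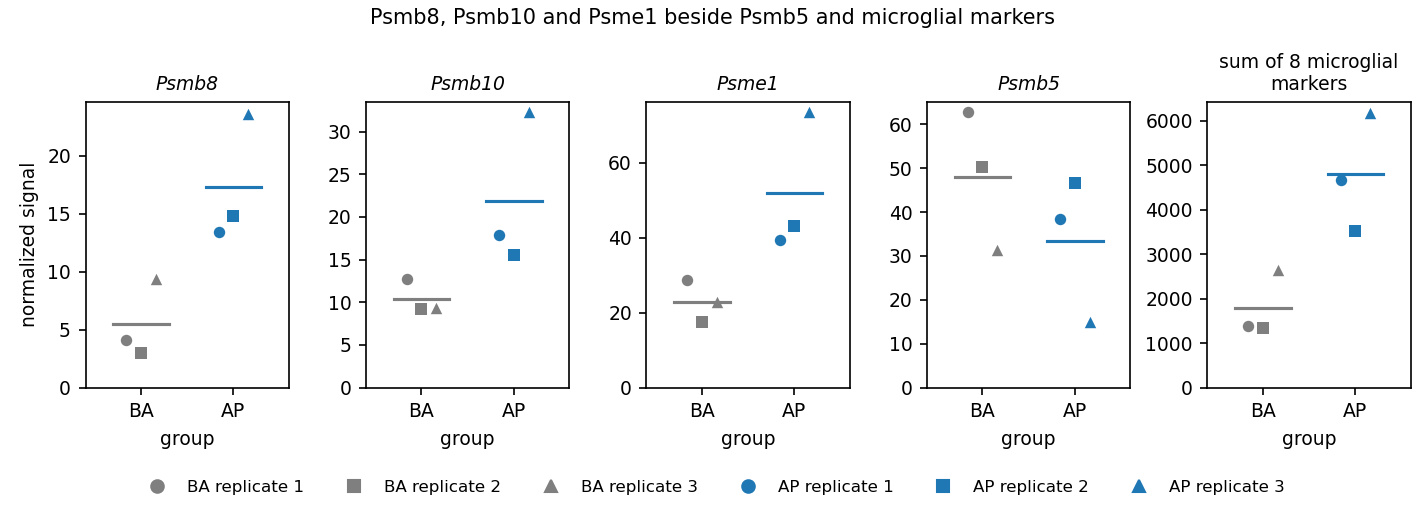
Psmb8, Psmb10, Psme1 and Psmb5 and the sum of 8 microglial markers in BA (gray) and AP (blue) mice: the y axes give the normalized signal, each point is 1 mouse and bars are group means. AP mice lie above BA mice in Psmb8, Psmb10, Psme1 and the marker sum, with AP replicate 3 highest in each, and overlap in Psmb5.

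Microglial markers were also higher in AP mice. The sum of the 8 markers was 1389, 1339 and 2649 in the BA mice and 4670, 3523 and 6177 in the AP mice. Each marker had a log2 fold change between 1.29 (Csf1r) and 1.96 (Tmem119), and none was called. AP replicate 3 was the highest AP mouse in this sum and in Psmb8, Psmb10 and Psme1. The highest BA mouse was BA replicate 3 in the sum and in Psmb8 but BA replicate 1 in Psmb10 and Psme1, and AP replicate 2, the lowest AP mouse in the sum, was above AP replicate 1 in Psmb8 and Psme1. Of the antigen processing genes, B2m, which codes for the light chain of MHC class I, was at 203.4, 271.6 and 540.2 in the BA mice and at 795.6, 626.1 and 1062.8 in the AP mice. Its log2 fold change was 1.38 (limma adjusted p = 0.395), and that of H2-K1, a class I heavy chain, was 0.86 (limma adjusted p = 0.444). Tap1 and Irf1 overlapped between the groups. The part of microglial RNA in the values of Psmb8, Psmb10 and Psme1 was not tested.

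The partners of these genes overlapped between BA and AP mice. Psmb5, which Psmb8 replaces, was at 62.7, 50.2 and 31.4 in the BA mice and at 38.4, 46.6 and 15.0 in the AP mice (log2 fold change -0.61, SE 0.44, limma adjusted p = 0.739), and its near copy Gm3375 shares 98.869% of 796 bases. Psmb7, which Psmb10 replaces, was at 205.5, 203.9 and 215.3 against 186.0, 208.1 and 177.2, and Psmb6 had a log2 fold change of 0.08. Psme2, which assembles with Psme1, was at 26.5, 28.6 and 25.2 in the BA mice and at 14.5, 30.2 and 17.1 in the AP mice (log2 fold change -0.43, limma adjusted p = 0.727). Psme2 is also known to be induced by interferon.

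Of the standard core, the 7 alpha ring genes had log2 fold changes from -0.17 to 0.48 (Psma2) with a median of 0.11, and the 7 constitutive beta genes from -0.61 (Psmb5) to 0.17 with a median of 0.08. The 20 genes of the 19S cap ran from -0.40 to 0.30 with a median of -0.05. Psma2 was at 122.4, 222.6 and 223.9 in the BA mice and at 224.9, 226.7 and 328.6 in the AP mice, so the lowest AP mouse and the highest BA mouse are almost level. Psmd11, a lid subunit, was at 457.4, 399.3 and 402.6 against 332.1, 360.9 and 324.8 (log2 fold change -0.31, limma adjusted p = 0.726). Psmg2 was at 58.5, 60.4 and 60.8 against 52.0, 56.5 and 31.2, where AP replicate 3 lay far below the rest. The 6 ATPase genes had log2 fold changes between -0.12 (Psmc1) and 0.30 (Psmc5), and in each of them AP and BA mice overlapped.

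The genes called between BA and AV mice had the following values in AP mice, against the same BA mice. Psmc5 had a log2 fold change of 0.30 (95% interval -0.37 to 0.96), Psmc1 of -0.12 (-0.62 to 0.38) and Psmc2 of -0.08 (-0.61 to 0.44). Psme3 was at -0.22 (-0.74 to 0.29), Psme4 at -0.08 (-0.56 to 0.40) and Psmb11 at -0.19 (-1.02 to 0.65). Whether AV and AP mice differ was not tested, since they stand in tables normalized apart.

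Genes that act with the proteasome were taken from 7 lists of 31 genes, of which 26 were listed for BA and AV mice. There 4 were called higher in AV mice and 1 lower, 19.2% against 29.7% of all genes. Rps27a, which codes for ubiquitin fused to a ribosomal protein, was higher by 1.15 on the log2 scale (limma adjusted p = 0.0150). The polyubiquitin gene Ubb was not called, with a log2 fold change of 0.40. Ubqln4, a shuttle that carries ubiquitinated proteins to the cap, was higher by 1.30 (limma adjusted p = 0.00970), and the other 4 shuttle genes were not called.

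Among regulators of proteasome transcription Nfe2l1 was higher and Ngly1 lower in AV mice. Nfe2l1, the transcription factor that restores proteasome genes when proteasome activity is short, was at 191.6, 332.5 and 250.1 in the BA mice and at 496.9 and 537.8 in the AV mice (log2 fold change 1.04, SE 0.28, limma adjusted p = 0.0340). Ngly1, the enzyme that removes sugars from Nfe2l1 protein, was at 166.7, 184.6 and 249.9 in the BA mice and at 65.8 and 103.4 in the AV mice (log2 fold change -1.25, SE 0.30, limma adjusted p = 0.0221). Ddi2, the protease that cleaves Nfe2l1 protein, had a log2 fold change of -0.40 and was not called. Uchl5, a deubiquitinase bound to the cap, was at 33.9, 49.8 and 69.7 in the BA mice and at 106.1 and 122.4 in the AV mice (limma adjusted p = 0.0336), while its docking subunit Adrm1 was at 0.23 (limma adjusted p = 0.438). Sem1, the smallest cap subunit, was at 148.2, 132.6 and 155.4 against 84.7 and 100.8 (log2 fold change -0.65, limma adjusted p = 0.0666), and Pomp, the chaperone of core maturation, at 0.26. In AP mice none of 29 listed genes was called. Of these, 3 had an unadjusted limma p under 0.05, namely B2m, H2-K1 and Nfe2l2, 10.3% against 7.77% of all genes, and all 3 had higher values in AP mice.

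The exon length of a gene, with all its annotated exons merged, and the GC content of its longest transcript were set against the differences. Over the 38 members the Spearman correlation across genes of the log2 fold change was -0.26 with exon length and 0.36 with GC content, and over all genes it was -0.12 and 0.15. For AP mice these values were -0.20 and 0.17 over 44 members, and -0.13 and 0.03 over all genes. Of the called genes, Psmc2 (5031 bases of exon and 41.3% GC), Psme4 (8382 bases, 43.9%) and Psmb11 (4791 bases, 50.7%) fell in AV mice. Psmc5 (1394 bases, 51.9%), Psme3 (2949 bases, 49.8%) and Psmc1 (1933 bases, 49.5%) rose. In GC content these groups overlap, with Psmb11 above Psme3 and Psmc1 and above the members' median of 49.2%. In exon length they do not overlap: the shortest gene that fell has 4791 bases and the longest that rose has 2949. Genes are not independent replicates, and the part of length and composition was not tested.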

How the data were processed

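The authors sorted and sequenced the cells, and deposited a normalized signal per gene and mouse. Per their methods it was TMM normalized and filtered for low counts. ARSyN batch correction is also named, but for which tables is not stated. The fits here take no account of such a correction, so limma p values of a corrected table could be too small, which was not tested. Submitters' processing notes name bcl2fastq 2.20, Salmon 1.2 and GRCm38.p6. Each mouse of the BA and AP table has a floor of 2, and 80.5 to 90.5% of low values lie on steps of 1 read (0.7085 to 1.2275, tolerance 0.03 of a step). From these steps an estimated 3812184 to 6719780 reads stand behind the listed genes of a mouse, which is not the depth of its library. The depth of the BA and AV table is unknown. No counts being at hand, limma 3.58.1 (R 4.3.3) was fitted on log2(value + 1) over all genes of a table with group as the only term, and calls were made at a Benjamini-Hochberg adjusted p under 0.05. Symbols and exons came from the GENCODE annotation of GRCm38, promoters from RefSeq, and near copies from BLAST 2.17.0 (95% identity over 200 bases).

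Members, roles, associated genes and markers were chosen with earlier results of these data known. Some genes of the associated and marker lists are not reported here and were left out of the counts of these lists. Named are catalytic and called members, the extremes of each role and called associated genes; further ones were chosen on sight of their values. Alternatives were pseudocounts of 5 and 0.5, a mean of at least 20, centring, subtraction of the lowest value, another variance prior, a threshold of 0.01, the replicate number as a block and each mouse left out. Scripts were tested on simulated data and ran in Python 3.11.15 with pandas 2.3.3.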

Additional observations from a re-analysis of the deposited data

How the results depend on the processing

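Among BA and AV mice, the count of called proteasome genes was 6 and moved to 2 at an adjusted p under 0.01 and to between 3 and 10 when 1 mouse was left out; it was 3 without BA replicate 1 or BA replicate 3 and 10 without AV replicate 3. The count over all genes was 2934, with 1151 at an adjusted p under 0.01 and 1521 to 3497 when 1 mouse was left out. The median log2 fold change of the members was 0.17 with each mouse centred on its median and 0.12 to 0.35 when 1 mouse was left out. With the replicate block, 970 genes and 0 proteasome genes were called, and limma adjusted p values of the 6 ran from 0.0557 for Psmc5 to 0.165 for Psmc1. AV replicate 2 is absent, so BA replicate 2 adds nothing to this fit, and fewer residual degrees of freedom remain. The lost calls therefore cannot decide whether mice are paired. Whether the replicate numbers pair these mice is not given in the sources used here. Correlations over genes of same-numbered mice, each taken as the difference from its group mean, were -0.06 and -0.04 for AV mice. For AP mice they were 0.02, 0.12 and 0.08. These values cannot decide it, since no reference distribution was computed and the differences of the 2 AV mice mirror each other. The sign of Psmf1 turned without BA replicate 3 (0.02) or AV replicate 1, its log2 fold change ranging from -0.70 to 0.37 when 1 mouse was left out, and Psmg2 was at 0.85 without AV replicate 3 and -1.15 without AV replicate 1.

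Among BA and AP mice, 0 proteasome genes were called under every alternative run, and 3 had an unadjusted limma p under 0.05. Over all genes 1 was called; 0 were called with a pseudocount of 5, a mean of at least 20 or the replicate block, 2 with a pseudocount of 0.5 or the lowest value subtracted, 10 with a variance prior that follows mean expression, and 0 to 15 when 1 mouse was left out, 15 being without AP replicate 1. The members' median was -0.054 to 0.091 when 1 mouse was left out. The sign turned for Psmb11 without BA replicate 1 (range when 1 mouse was left out -0.60 to 0.12), Psmb6 without BA replicate 3 (-0.0094 to 0.21) and Psmd8 without AP replicate 2 (-0.057 to 0.30). The cause of these changes was not tested. Psmb8 stayed positive, from 1.28 to 1.96 when 1 mouse was left out, and was 1.10 with a pseudocount of 5 and 2.06 with the lowest value subtracted. The log2 fold changes of low genes are understated by the pseudocount, and since the depth behind the BA and AV table is unknown, no counting interval can be given for it.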
